A study of Mus musculus with 8 samples.

Results

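The mouse Cyp2c genes encode cytochrome P450 enzymes of subfamily 2C and lie in a cluster on chromosome 19. Described here are 10 of them, namely Cyp2c29, Cyp2c37, Cyp2c38, Cyp2c39, Cyp2c40, Cyp2c50, Cyp2c54, Cyp2c68, Cyp2c69 and Cyp2c70. They were taken by gene name, with the estimated counts of their 22 transcripts summed per gene, out of 35975 genes in the table. Liver RNA came from C57BL/6 mice (C57BL/6J in the study's methods) aged 8 to 10 weeks at purchase, each with a catheter in the portal vein fed by a pump under the skin. The pumps of 4 mice delivered normal saline and those of the other 4 delivered 55 mM 4-hydroxyphenylacetic acid (4-HPAA) in normal saline, at 0.25 µL per hour for 2 weeks. The comparison asks which liver transcripts differ when this gut microbial metabolite is supplied by the route it takes from the gut. Both groups carried the same implant, and unoperated mice were not analysed here. The labels number the mice 1 to 4 in each group, and nothing more is stated there about how the samples were kept separate. Values that compare libraries are given as CPM (counts scaled to library size, normalized by TMM), and values that compare genes as TPM, which also allows for transcript length.

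Cytochrome P450 enzymes hold a haem group through a cysteine and insert an oxygen atom into lipids, drugs and steroids, with electrons supplied by P450 oxidoreductase. In mouse liver, Cyp2c enzymes form epoxides and hydroxylated products of arachidonic and linoleic acid, metabolize foreign compounds and, in the case of Cyp2c70, make muricholic acids. The genes arose by repeated duplication, so several of them remain close in sequence. Many are transcribed mainly in hepatocytes around the central vein, and their transcription is known to depend on nuclear receptors such as Nr1i3 (CAR) and on the pattern of growth hormone secretion.

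How alike the members can be is illustrated by 60 bases of coding sequence around the haem-binding cysteine. The stretch was located by the haem signature that all of them carry, so it does not measure likeness over whole transcripts. The stretch crosses from exon 8 into exon 9 of the most abundant annotated transcript of each member, which has 9 exons in every case. It was read from the GENCODE M21 transcripts (GRCm38), 5′ to 3′. Capitals mark bases that differ from the base carried by most of 11 genes, the 10 members and the neighbouring Cyp2c67, and every base at a position where no base is carried by most of them.
Cyp2c29 (chr19:39329221-39329245 and chr19:39330252-39330286, plus strand): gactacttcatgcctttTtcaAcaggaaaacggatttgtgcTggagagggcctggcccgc
Cyp2c38 (chr19:39392149-39392173 and chr19:39391078-39391112, minus strand): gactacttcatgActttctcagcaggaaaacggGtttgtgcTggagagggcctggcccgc
Cyp2c39 (chr19:39567004-39567028 and chr19:39568013-39568047, plus strand): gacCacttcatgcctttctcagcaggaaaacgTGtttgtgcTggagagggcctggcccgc
Cyp2c37 (chr19:40009932-40009956 and chr19:40011727-40011761, plus strand): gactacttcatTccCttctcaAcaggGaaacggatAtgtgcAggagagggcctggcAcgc
Cyp2c50 (chr19:40111393-40111417 and chr19:40113434-40113468, plus strand): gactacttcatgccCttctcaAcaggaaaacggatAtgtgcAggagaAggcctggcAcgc
Cyp2c54 (chr19:40040192-40040216 and chr19:40038384-40038418, minus strand): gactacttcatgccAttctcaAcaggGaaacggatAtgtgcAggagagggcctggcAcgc
Cyp2c40 (chr19:39773824-39773848 and chr19:39767456-39767490, minus strand): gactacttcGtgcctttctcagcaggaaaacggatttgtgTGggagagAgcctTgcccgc
Cyp2c69 (chr19:39849346-39849370 and chr19:39843042-39843076, minus strand): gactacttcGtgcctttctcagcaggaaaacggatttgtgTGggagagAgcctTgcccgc
Cyp2c68 (chr19:39699261-39699285 and chr19:39689219-39689253, minus strand): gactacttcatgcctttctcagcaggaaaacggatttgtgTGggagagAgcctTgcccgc
Cyp2c70 (chr19:40156723-40156747 and chr19:40153723-40153757, minus strand): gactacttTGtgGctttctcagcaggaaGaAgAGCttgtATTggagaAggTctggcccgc

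Cyp2c40 and Cyp2c69 were identical over these 60 bases, and Cyp2c67 did not differ from them either. Cyp2c68 differed from each of these 3 genes at 1 base. Cyp2c37 and Cyp2c54 differed at 2 bases, and Cyp2c38 and Cyp2c39 at 3. Cyp2c70 carried 13 bases in capitals, the most of the 10. Over whole transcripts, 57.7% of the 31-base words of Cyp2c69 were also in Cyp2c40, and 53.6% of those of Cyp2c68 were. A word of 31 bases is the usual unit that a pseudo-aligner such as kallisto compares. A read holds many such words, so a share of words is not the share of reads that can be assigned. Of the words of Cyp2c40, 27.4% were found in no other annotated gene. This share was 35.1% for Cyp2c69, 38.0% for Cyp2c68, 52.6% for Cyp2c37, 57.7% for Cyp2c54, 70.8% for Cyp2c50, 73.1% for Cyp2c39, 83.4% for Cyp2c38 and 89.5% for Cyp2c29. Cyp2c70 shared no word with any gene, so its count did not depend on how reads were divided among its relatives. For Cyp2c40, Cyp2c68 and Cyp2c69 the division of reads is uncertain, and the sums over close relatives are given beside the single genes below.

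**Figure D1:**
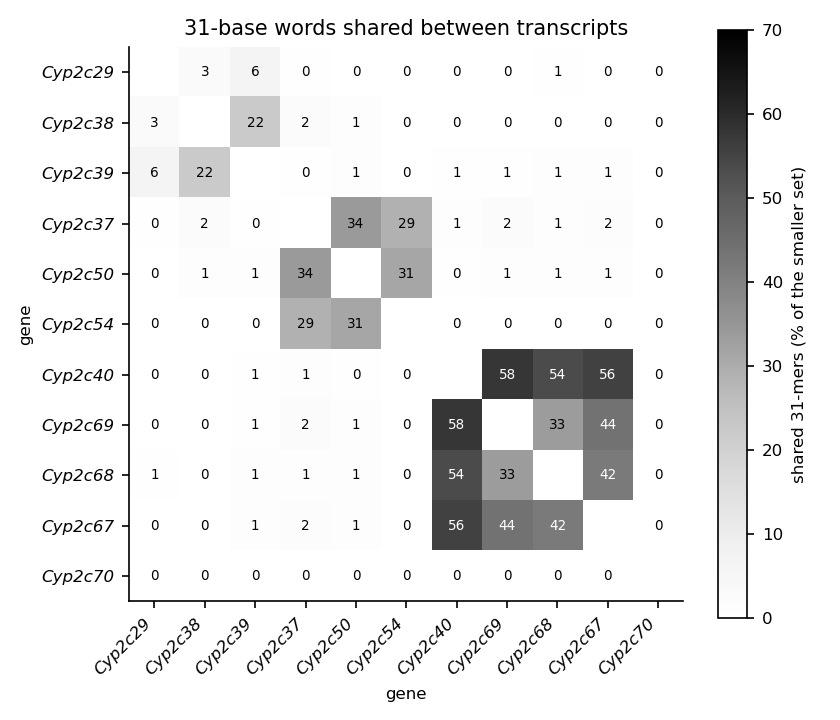
Share of 31-base words (31-mers) that each pair of Cyp2c genes has in common, as a percentage of the smaller set, with rows and columns for the 10 members and Cyp2c67 and darker squares for more sharing. Blocks are formed by Cyp2c37, Cyp2c50 and Cyp2c54 and by Cyp2c40, Cyp2c69, Cyp2c68 and Cyp2c67, while the row of Cyp2c70 is at 0.

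Upstream sequence was also shared between members. RefSeq windows of 300 bases (GRCm38.p6) were present for 9 of the 10 members, without Cyp2c54. Of the 2 windows listed for Cyp2c39, the one far from the gene in GENCODE was left out of the counts below. The windows of Cyp2c68 and Cyp2c69 were 91.1% identical over their alignment, those of Cyp2c37 and Cyp2c50 86.6% and those of Cyp2c40 and Cyp2c69 80.9%. The windows are fixed from the annotated starts, and gaps at their ends lower these percentages. CAAAGTCCA, a motif described below, began at -125 in Cyp2c67, at -75 in Cyp2c69 and at -45 in Cyp2c40. The 80.9% of Cyp2c40 and Cyp2c69 and the 53.9% of Cyp2c40 and Cyp2c67 are lowered by this offset. Cyp2c29 was 70.8% identical to Cyp2c38 upstream, and their transcripts shared 2.85% of the smaller set of words. These measures are not alike, since a word counts as shared only if all of its 31 bases match. The 250 bases before the annotated start are shown for 2 pairs, 5′ to 3′ on the strand of the gene. Levels of the first pair ran in parallel across libraries (Cyp2c37 and Cyp2c50). The second had the highest percentage over whole windows (Cyp2c68 and Cyp2c69). Capitals mark matches to the motifs searched, which are named below.
Cyp2c37 (chr19:39992174-39992423, plus strand): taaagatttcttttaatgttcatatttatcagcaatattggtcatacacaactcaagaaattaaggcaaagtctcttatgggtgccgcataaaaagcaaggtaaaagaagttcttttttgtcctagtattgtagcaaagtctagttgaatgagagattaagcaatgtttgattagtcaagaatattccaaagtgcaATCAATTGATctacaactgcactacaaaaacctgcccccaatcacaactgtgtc
Cyp2c50 (chr19:40089429-40089678, plus strand): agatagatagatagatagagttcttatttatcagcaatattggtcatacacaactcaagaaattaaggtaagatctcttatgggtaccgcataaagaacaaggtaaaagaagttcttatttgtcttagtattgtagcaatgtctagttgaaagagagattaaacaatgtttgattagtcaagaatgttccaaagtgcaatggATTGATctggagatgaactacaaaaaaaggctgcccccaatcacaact
Cyp2c68 (chr19:39741102-39741351, minus strand): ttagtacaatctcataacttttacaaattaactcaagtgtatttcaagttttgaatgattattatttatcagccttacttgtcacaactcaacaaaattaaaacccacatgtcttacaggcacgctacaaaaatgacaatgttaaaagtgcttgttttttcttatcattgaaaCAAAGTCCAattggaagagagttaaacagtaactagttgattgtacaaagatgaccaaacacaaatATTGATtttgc
Cyp2c69 (chr19:39886770-39887019, minus strand): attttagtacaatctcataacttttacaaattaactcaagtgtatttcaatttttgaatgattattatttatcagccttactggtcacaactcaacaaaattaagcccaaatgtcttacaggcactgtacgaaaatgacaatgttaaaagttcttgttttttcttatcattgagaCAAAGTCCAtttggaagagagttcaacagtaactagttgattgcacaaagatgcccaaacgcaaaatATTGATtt

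Each of 4 motifs was sought on both strands. CAAAGTCCA, known as a binding sequence of the transcription factor HNF4A, was present in the windows of Cyp2c40, Cyp2c68, Cyp2c69 and Cyp2c70, 4 of 9 windows, and in 0.475% of 32851 RefSeq windows of the same length. It began at -77 from the start in Cyp2c68, at -75 in Cyp2c69, at -45 in Cyp2c40 and at -64 in Cyp2c70. The ONECUT factor motif ATCAAT was present in 5 windows of 9, those of Cyp2c37, Cyp2c40, Cyp2c50, Cyp2c68 and Cyp2c69, and in 7.54% of all. In Cyp2c37 the matches on either strand overlapped, at -54 and -50, and in Cyp2c40 the match began past the annotated start, at 23. The TATA box, searched as TATAAA, was present in 6 windows and in 13.6% of all. It began at -31 in Cyp2c38, at -19 in Cyp2c29, at -3 in Cyp2c39 and, on the other strand, at -29 in Cyp2c70. In Cyp2c69 and Cyp2c40 it began past the annotated start, at 11 and 41. The forkhead (FOXA) motif, searched as TGTTTAC, was present in 2 windows, of Cyp2c38 and Cyp2c39, and in 3.65% of all. The members descend from a common gene, so their matches are not independent of each other.

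The summed level of the 10 members, which leaves out relatives such as Cyp2c23 and Cyp2c67, did not separate the groups. The 10 members together held 0.188%, 0.258%, 0.248% and 0.165% of the estimated counts in normal saline replicates 1 to 4, and 0.252%, 0.239%, 0.2505% and 0.130% in 4-HPAA replicates 1 to 4. The means were 0.215% ± 0.0456 for the former and 0.218% ± 0.0586 for the latter (SD over 4 mice each). Replicate 4 was the lowest of its group in both. Summed per length, the members reached 2018 ± 409 TPM and 2046 ± 546 TPM (SD over 4 mice each).

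Of the 10 members, 10 passed the minimum of 10 counts in every library and 0 were called at the threshold of 0.05 on edgeR's adjusted p (quasi-likelihood, Benjamini-Hochberg over 12883 genes), where 0% of all genes tested were. DESeq2 called 2 genes on the same counts, neither of them a member. At an unadjusted p under 0.05 there was 1 member, Cyp2c39, against 225 genes or 1.75% of all tested, and 128 genes or 0.994% in its direction, lower with 4-HPAA. With 10 members, 1 is too few to set against that share. The groups did not overlap for 0 members and for 154 genes, 1.2% of all. The log2 fold change of 4-HPAA over normal saline was below 0 for 6 members and above 0 for 4, where 49.6% of all genes were below 0. The members' median was -0.18, and the median of all genes was 0.00071. The 95% interval included 0 for 9 of the 10 members. When counts of 12647 genes were simulated at this depth and spread, edgeR recovered 81 of 100 planted changes of 2-fold and 93 of 100 of 4-fold, and made 14 false calls. The changed genes were drawn from all those tested and the libraries simulated independently. These rates therefore do not tell how often a change in a member would be found, with standard errors up to 0.82 (Cyp2c40).

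**Figure D2:**
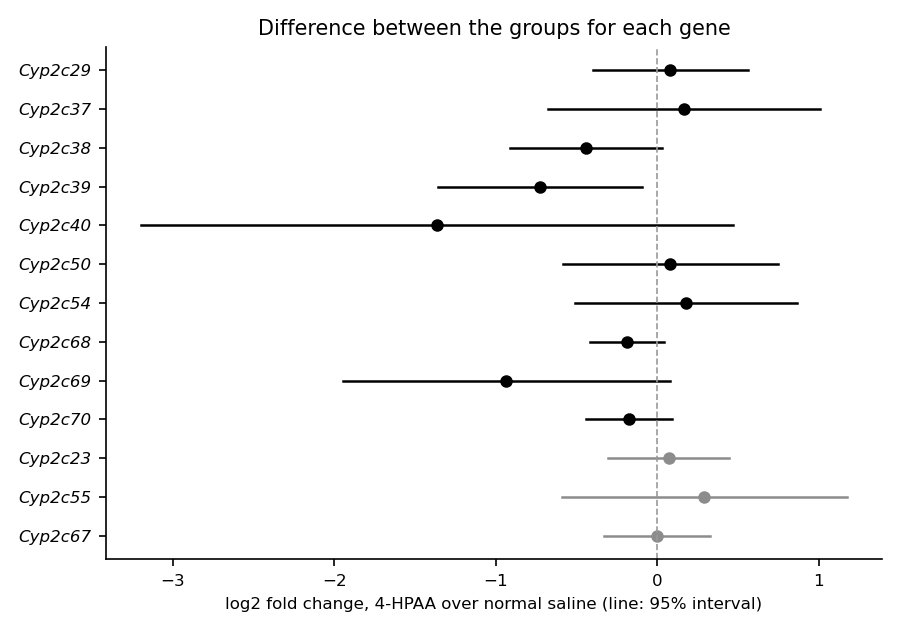
Log2 fold change of 4-HPAA over normal saline (horizontal axis) for the 10 members in black and 3 further Cyp2c genes in grey, with lines for the 95% interval and a dashed line at 0. The interval of Cyp2c39 lies below 0 and the other 12 intervals include 0, with the widest for Cyp2c40.

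Across the 8 libraries the members fell into a group of high and a group of low levels per length. Cyp2c29 was the highest at 632 ± 145 TPM, followed by Cyp2c50 at 472 ± 145, Cyp2c70 at 302 ± 41.0, Cyp2c37 at 207 ± 77.4, Cyp2c54 at 204 ± 65.3 and Cyp2c68 at 175 ± 21.6 TPM (mean and SD, n = 8). The low members were Cyp2c38 at 21.02 ± 6.66, Cyp2c40 at 9.40 ± 7.87, Cyp2c69 at 7.49 ± 3.99 and Cyp2c39 at 1.37 ± 0.569 TPM (mean and SD, n = 8). Cyp2c29 stood above Cyp2c50 in 8 of 8 libraries and Cyp2c50 above Cyp2c70 in 7 of 8. Cyp2c37, Cyp2c54 and Cyp2c68 followed each other by less than the larger SD of each pair, and so did Cyp2c40 and Cyp2c69. Among relatives that are not members, Cyp2c23, an epoxygenase gene outside the cluster, stood at 302 TPM, Cyp2c67 at 237 TPM and Cyp2c55 at 4.07 TPM. Cyp2c23 and Cyp2c70 were level, with Cyp2c70 higher in 4 of 8 libraries.

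**Figure D3:**
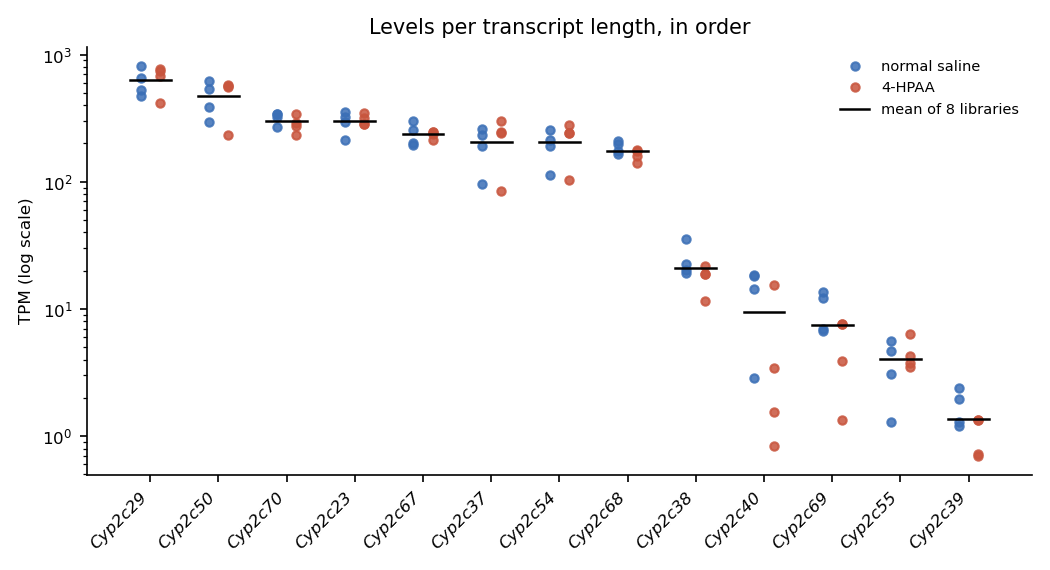
TPM on a log scale (vertical axis) for 13 Cyp2c genes in falling order of their mean, with 1 point per library, blue for normal saline and red for 4-HPAA, and a bar for the mean of 8 libraries. The 6 highest members lie above 100 TPM on average and Cyp2c39 is the lowest, at 1.37 TPM.

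The fatty acid epoxygenases and hydroxylases are described first. Cyp2c29 (chr19:39269405-39330713, plus strand) encodes an arachidonic acid epoxygenase that is also induced by phenobarbital-like compounds. Its level was 493, 901, 711 and 587 CPM in normal saline replicates 1 to 4 and 771, 789, 818 and 469 CPM in 4-HPAA replicates 1 to 4. With 4-HPAA, 3 libraries lay close together and replicate 4 far below them, just under the lowest normal saline library. The difference on the log2 scale was 0.08 (standard error 0.22, 95% interval -0.40 to 0.56, edgeR adjusted p = 1.00), and it was -0.042 without normal saline replicate 1.

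Cyp2c37 (chr19:39992424-40012243, plus strand), Cyp2c50 (chr19:40089688-40113950, plus strand) and Cyp2c54 (chr19:40037940-40073827, minus strand) lie next to each other and encode enzymes that oxidize arachidonic and linoleic acid. Cyp2c37 was at 205, 268, 288 and 109 CPM in normal saline replicates 1 to 4 and at 349, 266, 263 and 97.6 CPM in 4-HPAA replicates 1 to 4. Cyp2c50 was at 404, 591, 666 and 325 CPM with normal saline and at 660, 580, 600 and 261 CPM with 4-HPAA, in the same order. Cyp2c54 was at 199, 238, 277 and 125 CPM with normal saline and at 319, 258, 257 and 116 CPM with 4-HPAA. In each of the 3 genes replicate 4 was the lowest library of both groups, and the groups overlapped across nearly their whole range. The log2 fold changes were 0.17 for Cyp2c37 (standard error 0.38), 0.08 for Cyp2c50 (standard error 0.30) and 0.18 for Cyp2c54 (standard error 0.31), with an edgeR adjusted p of 1.00 for each. Without normal saline replicate 4 they were -0.055, -0.076 and -0.0037, so their sign rested on that library. Without 4-HPAA replicate 1, Cyp2c37 stood at -0.055 and Cyp2c50 at -0.046, and without normal saline replicate 1 Cyp2c50 stood at -0.0062. The 3 genes share up to 34.2% of their 31-base words. Summed over the 3 genes, the log2 fold change was 0.12 (standard error 0.32).

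Cyp2c38 (chr19:39389556-39463075, minus strand) and Cyp2c39 (chr19:39510862-39568529, plus strand) are neighbours near Cyp2c29 and encode further arachidonic acid epoxygenases, of which Cyp2c39 also hydroxylates retinoic acid. Cyp2c38 was at 59.5, 36.5, 39.3 and 34.0 CPM in normal saline replicates 1 to 4 and at 34.4, 32.4, 37.0 and 20.9 CPM in 4-HPAA replicates 1 to 4. Normal saline replicate 1 was far above and 4-HPAA replicate 4 far below the other 6 libraries, which lay between 32.4 and 39.3 CPM. For Cyp2c38 the log2 fold change was -0.44 (standard error 0.21, 95% interval -0.91 to 0.03, edgeR adjusted p = 1.00). It was -0.23 without normal saline replicate 1 and -0.30 without 4-HPAA replicate 4.

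Cyp2c39 was the least abundant member, with 23.1 to 79.1 estimated counts per library. It was at 2.53, 1.37, 2.17 and 1.45 CPM in normal saline replicates 1 to 4 and at 0.839, 1.44, 1.46 and 0.807 CPM in 4-HPAA replicates 1 to 4. Normal saline replicates 1 and 3 were above every 4-HPAA library, whereas normal saline replicates 2 and 4 lay between 4-HPAA libraries. On the log2 scale the difference was -0.73 (standard error 0.28, 95% interval -1.36 to -0.09), with an edgeR unadjusted p of 0.0290 and an adjusted p of 1.00. Without normal saline replicate 1 the difference was -0.55, with an edgeR unadjusted p of 0.0897. Cyp2c38 and Cyp2c39 share 22.1% of the smaller set of words, and their sum had a log2 fold change of -0.45 (standard error 0.21). Nearly all of this sum was Cyp2c38 (normal saline means of 42.3 CPM against 1.88 CPM), so it tells little about Cyp2c39.

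The block of Cyp2c40, Cyp2c68 and Cyp2c69 is the one in which reads are hardest to assign. Cyp2c40 (chr19:39767071-39812814, minus strand), which encodes an arachidonic acid hydroxylase, was at 18.9, 20.6, 15.5 and 3.04 CPM in normal saline replicates 1 to 4 and at 3.95, 16.3, 1.48 and 0.794 CPM in 4-HPAA replicates 1 to 4. Its highest library exceeded its lowest 25.9-fold, the widest range among the members, and the libraries fell into a high set (normal saline replicates 1 to 3 and 4-HPAA replicate 2) and a low set (the other 4). Both sets held libraries of both groups. The lowest library held 22.7 estimated counts of Cyp2c40. Between the groups the log2 fold change was -1.36 (standard error 0.82, 95% interval -3.20 to 0.47, edgeR adjusted p = 1.00). Without 4-HPAA replicate 2 it was -2.81, still with an edgeR adjusted p of 1.00, and with limma-voom it was -1.97.

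Cyp2c69 (chr19:39842814-39886799, minus strand) was at 11.9, 13.9, 6.69 and 7.11 CPM in normal saline replicates 1 to 4 and at 8.07, 7.42, 3.81 and 1.39 CPM in 4-HPAA replicates 1 to 4. Normal saline replicates 1 and 2 were above all 4-HPAA libraries and 4-HPAA replicates 3 and 4 below all normal saline libraries, and of the other 4 libraries those of 4-HPAA were the higher. Its log2 fold change was -0.93 (standard error 0.45, 95% interval -1.94 to 0.08, edgeR adjusted p = 1.00), and it was -0.63 without 4-HPAA replicate 4. Cyp2c68 (chr19:39688834-39741054, minus strand) was far more abundant and steadier, at 212, 213, 173 and 187 CPM with normal saline and at 195, 164, 179 and 152 CPM with 4-HPAA, in the order of the replicates. Its log2 fold change was -0.19 (standard error 0.10, 95% interval -0.42 to 0.04, edgeR adjusted p = 1.00). The sum of Cyp2c40, Cyp2c67, Cyp2c68 and Cyp2c69, which leaves out how reads were divided among them, was 441, 573, 466 and 413 CPM with normal saline and 483, 441, 430 and 388 CPM with 4-HPAA. For this sum the log2 fold change was -0.12 (standard error 0.12). Most of the sum was Cyp2c67 and Cyp2c68, with normal saline means of 252 and 196 CPM, against 14.5 CPM for Cyp2c40 and 9.90 CPM for Cyp2c69. It therefore tells little about the differences of Cyp2c40 and Cyp2c69.

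Cyp2c70 (chr19:40153353-40187333, minus strand) encodes the enzyme that makes muricholic acids, the rodent-specific bile acids, from chenodeoxycholic and ursodeoxycholic acid. It was at 243, 334, 317 and 315 CPM in normal saline replicates 1 to 4 and at 277, 262, 302 and 231 CPM in 4-HPAA replicates 1 to 4. Normal saline replicates 2 to 4 were above all 4-HPAA libraries, and normal saline replicate 1 was below 3 of them. This gave a log2 fold change of -0.17 (standard error 0.12, 95% interval -0.44 to 0.09, edgeR adjusted p = 1.00). Without normal saline replicate 1 it was -0.26, and without 4-HPAA replicate 4 it was -0.11.

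**Figure D4:**
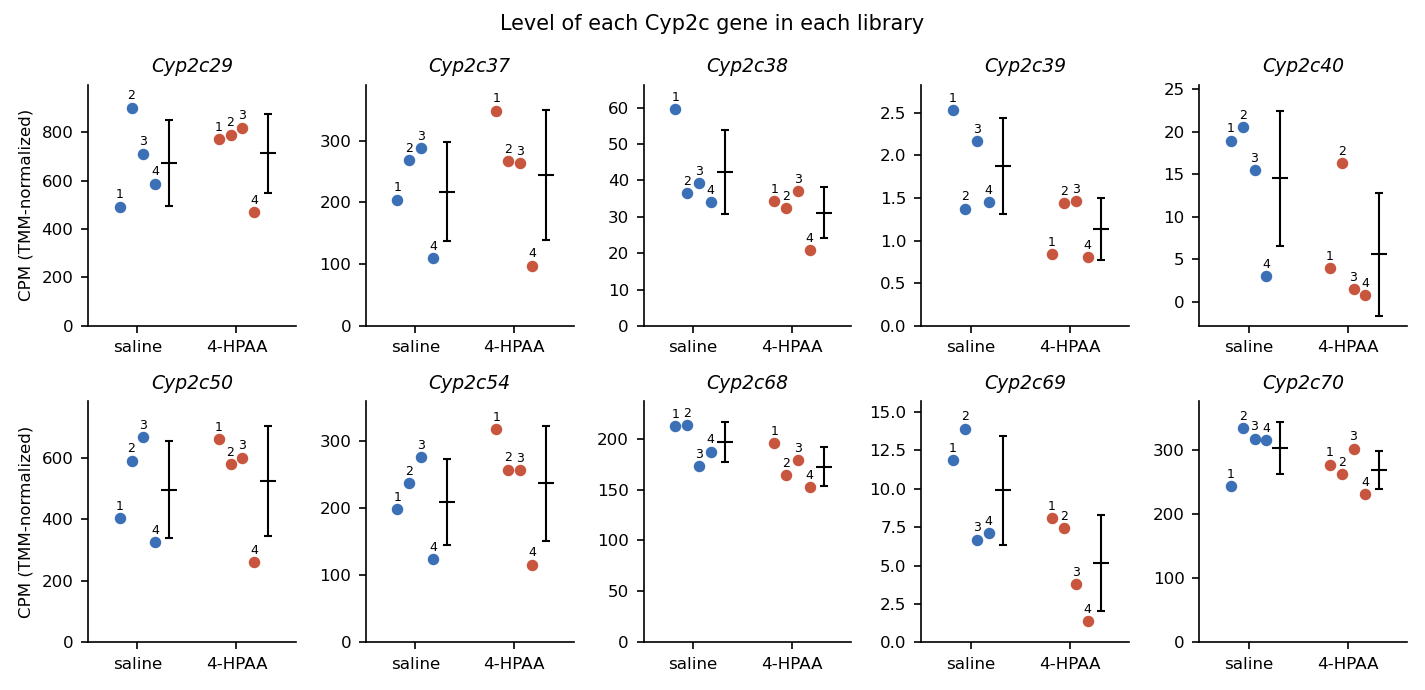
CPM of each member (vertical axis, 1 panel per gene, scales differ) in normal saline (blue) and 4-HPAA (red), with the replicate number above each point and the mean ± SD beside each group of 4. The groups overlap in all 10 panels, and 4-HPAA replicate 4 is the lowest point in every panel.

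All 10 members were lowest in 4-HPAA replicate 4, the library that was also lowest for 20.6% of the 12883 genes tested, against 10.1% to 12.7% of genes for each of the other 7 libraries. Within normal saline, 5 members were lowest in replicate 4, namely Cyp2c37, Cyp2c38, Cyp2c40, Cyp2c50 and Cyp2c54. This count was made after the values were seen, and the share of all genes lowest there within normal saline was not computed. Levels of Cyp2c37, Cyp2c50 and Cyp2c54 ran in parallel, so these genes are not separate observations. Relative to the mean of its 8 libraries, Cyp2c37 stood at -1.12 on the log2 scale in 4-HPAA replicate 4 and at -0.96 in normal saline replicate 4, whereas Cyp2c68 stood at -0.27 in the former and at 0.03 in the latter.

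**Figure D5:**
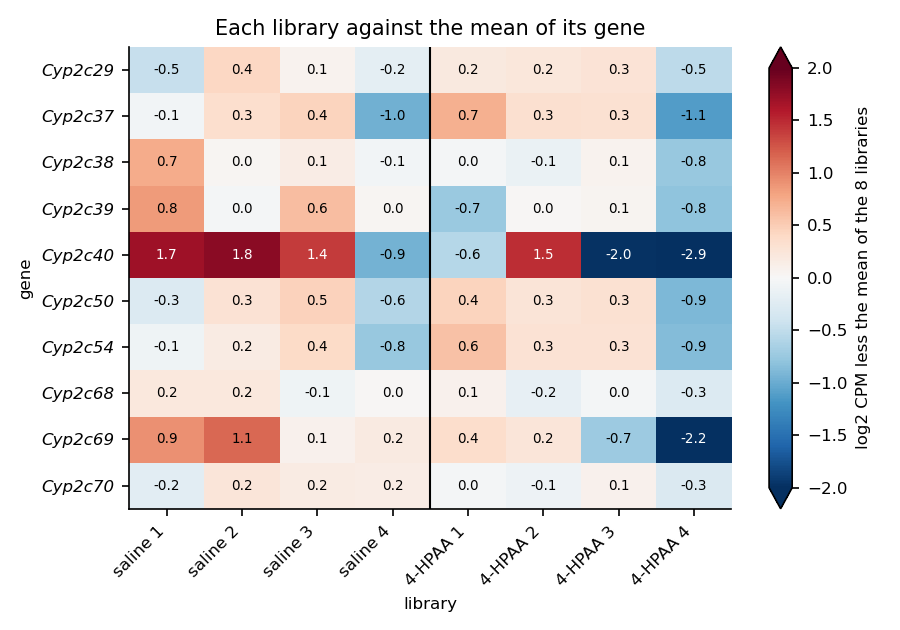
Log2 CPM of each member (rows) in each library (columns) less the mean of its 8 libraries, blue for lower and red for higher, with a line between normal saline and 4-HPAA. The column of 4-HPAA replicate 4 is blue throughout, and Cyp2c40 spans the widest range, from 1.8 to -2.9.

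Over the 8 libraries, Pearson's r of log2 CPM between Cyp2c37 and Cyp2c54 was 0.996, that between Cyp2c50 and Cyp2c54 0.973 and that between Cyp2c37 and Cyp2c50 0.971. These were the 3 of 45 pairs of members with r above 0.9, and the median of the 45 was 0.49. Without the 2 libraries farthest from the median of the first gene, r was 0.976, 0.897 and 0.897 for these pairs, but the median of the 45 was 0.15 and 19 of the 45 were below 0, against 1 pair with all libraries. Cyp2c29 and Cyp2c50, which share few words, came next at 0.858, and at 0.744 without the 2 farthest libraries. They were followed by pairs of the other blocks, at 0.846 for Cyp2c40 and Cyp2c69, 0.831 for Cyp2c68 and Cyp2c69 and 0.825 for Cyp2c38 and Cyp2c39. Without the 2 farthest libraries these were 0.508, 0.579 and 0.558. All of these points share their libraries and, within a block, part of the reads that could be assigned to either gene.

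Outside the family, the genes most alike in pattern were sought among 11986 genes by the same r over the 8 libraries, with no test since they were picked as the most alike. For Cyp2c50 they were Mup16 (r = 0.991), Mup17 (0.990) and Vps8 (0.989), of which the Mup genes encode major urinary proteins secreted by the liver. For Cyp2c37 they were Mup19 (0.977), Orm3 (0.976) and Nynrin (0.971), and for Cyp2c54 Tppp (0.976), Gucy1b1 (0.973) and again Mup19 (0.967). Those nearest to Cyp2c29 were C230062I16Rik (0.976), Tmem184a (0.967) and Acsm2 (0.966). Cyp2c70 was closest to Ugt2b37 (0.982), a glucuronosyltransferase gene, then to Zgrf1 (0.964) and Vmn1r65 (0.963). Cyp2c40 was closest to Ercc4 (0.985), Mb21d2 (0.964) and Eif4enif1 (0.963), and Cyp2c69 to Fbxw8 (0.974), 9430015G10Rik (0.973) and Arap3 (0.960). For Cyp2c39 they were Ints10 (0.955), Trappc9 (0.949) and 2610021A01Rik (0.946), and for Cyp2c68 Nmral1 (0.952), Myl9 (0.952) and Rgs16 (0.945). Cyp2c38 was closest to Col6a3 (0.960), Arhgef40 (0.958) and Rai14 (0.950), but without the 2 farthest libraries r with Col6a3 was 0.321, so this likeness rested on them.

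Markers of zones and cells of the liver moved with some of these libraries. Glul, the glutamine synthetase of the hepatocytes next to the central vein, was at 965, 935, 837 and 415 CPM in normal saline replicates 1 to 4 and at 809, 837, 841 and 512 CPM in 4-HPAA replicates 1 to 4. Cyp2e1, another pericentral P450 gene, was lowest in the same libraries, at 4420 CPM in normal saline replicate 4 and 5420 CPM in 4-HPAA replicate 4, against 6324 to 7233 CPM in the other 6. The summed level of the 12 pericentral genes listed was 7206 CPM in normal saline replicate 4 and 7880 CPM in 4-HPAA replicate 4, against 10008 to 11256 CPM in the other 6, and 0 of the 12 were at 0 in all libraries. Cyp2e1 made up most of this sum, and 8 of the 12 genes were the lowest of both groups in replicate 4, with Oat, Rgn, Axin2 and Tbx3 as the exceptions. The summed level of the 12 periportal genes was highest in the same libraries, at 119496 and 114073 CPM against 88503 to 101681 CPM. Most of this sum was Alb, and 7 of the 12 genes were the highest of both groups in replicate 4, whereas Cps1, Pck1, Hal, Cyp2f2 and Ctsc were not. Whether the zonal markers and the low Cyp2c levels of replicates 4 have a common source was not tested. In bulk tissue, fewer cells of a type and less RNA per cell cannot be told apart. With both replicates 4 left out, an alternative chosen after the data were seen, 0 members were called and the members' median log2 fold change was -0.12.

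Hepatocyte markers dominated every library, with Alb, which encodes serum albumin, at 73130 to 100791 CPM, as the tissue label of liver implies. Of 8 listed markers, 8 were tested for each of Kupffer, sinusoidal endothelial and stellate cells, and 0 were called. The summed Kupffer cell markers ranged from 98.3 to 306 CPM with normal saline and from 92.7 to 259 CPM with 4-HPAA, lowest in replicate 4 of both groups. Those of sinusoidal endothelial cells ranged from 169 to 232 CPM and from 155 to 265 CPM, and those of stellate cells from 126 to 224 CPM and from 136 to 230 CPM, with the lowest library replicate 4 in each group. Cholangiocyte markers, of which 4 of 6 were tested, summed to 23.5 to 45.5 CPM and 24.1 to 38.0 CPM. Of 8 pancreatic acinar markers 2 were tested, 2 were at 0 in all libraries, and the sum ranged from 9.40 to 15.5 CPM. Red blood cell genes summed to 2782 CPM in normal saline replicate 2 and 914 CPM in 4-HPAA replicate 4, against 333 to 547 CPM in the other 6. Among them Car2, a carbonic anhydrase gene, had a log2 fold change of -1.43 (edgeR unadjusted p = 0.0388, adjusted p = 1.00) with 25.5 CPM in normal saline replicate 2 and 3.27 to 4.12 CPM elsewhere. Their part in the Cyp2c values was not tested. Without normal saline replicate 2 and 4-HPAA replicate 4, 0 members were called and their median log2 fold change was -0.08. No member moved downward, which follows largely from the choice of libraries left out. 4-HPAA replicate 4 was the lowest library for all 10 members. Normal saline replicate 2 was the highest for Cyp2c29, Cyp2c40, Cyp2c68, Cyp2c69 and Cyp2c70. Without these libraries Cyp2c29 stood at 0.40 (edgeR unadjusted p = 0.0208, adjusted p = 1.00), where 285 of 13056 genes had an unadjusted p under 0.05. Cyp2c37 stood at 0.54, Cyp2c50 at 0.39 and Cyp2c54 at 0.47, like Cyp2c29 further above 0 than with all libraries. Cyp2c40 stood at -0.80, Cyp2c69 at -0.42, Cyp2c38 at -0.36, Cyp2c68 at -0.098 and Cyp2c70 at -0.065, nearer to 0. Cyp2c39 was nearly unchanged, at -0.72.

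The genes that work with the Cyp2c enzymes were measured in the same fit, and 0 genes of any list were called. Of 4 electron donor genes, 1 had a log2 fold change above 0 and 3 below, with a median of -0.03 against 0.00071 for all genes. Por, the P450 oxidoreductase gene that every microsomal P450 needs, stood at -0.01 (standard error 0.12). Of the 7 of 12 genes tested for epoxygenation of eicosanoids and hydrolysis of their epoxides, 3 were above 0 and 4 below. Ephx2, the soluble epoxide hydrolase gene that turns epoxides into diols, stood at 0.08 (standard error 0.10), and Cyp2j5, another epoxygenase gene, at -0.02 (standard error 0.08).

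Beside Cyp2c70, 10 genes of bile acid synthesis were tested, 3 of them above 0 and 7 below. Cyp7a1, the rate-limiting enzyme of the pathway, was at 296, 423, 279 and 277 CPM in normal saline replicates 1 to 4 and at 202, 298, 225 and 118 CPM in 4-HPAA replicates 1 to 4. Its lowest library was 4-HPAA replicate 4, as for the Cyp2c members, and its groups overlapped through 4-HPAA replicate 2. Cyp7a1 had a log2 fold change of -0.60 (standard error 0.25, edgeR unadjusted p = 0.0383, adjusted p = 1.00). Cyp8b1, which sets the share of cholic acid, stood at 0.05 (standard error 0.09), and Cyp27a1, which starts the alternative pathway, at -0.07 (standard error 0.10).

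Of 14 regulators of hepatic P450 genes, 6 were above 0 and 8 below. Nr1i3, the nuclear receptor CAR, was at 385, 360, 394 and 358 CPM in normal saline replicates 1 to 4 and at 448, 382, 345 and 226 CPM in 4-HPAA replicates 1 to 4, again lowest in 4-HPAA replicate 4. Hnf4a, a hepatocyte transcription factor gene, stood at 0.03 (standard error 0.10). Foxa2, a forkhead factor gene, was at 12.4, 19.1, 11.9 and 16.4 CPM and at 22.2, 12.0, 32.6 and 25.4 CPM, with a log2 fold change of 0.63 (standard error 0.27, edgeR unadjusted p = 0.0432, adjusted p = 1.00). Of 5 Cyp2b and Cyp3a genes tested, 1 was above 0. It was Cyp3a11, a main drug-metabolizing P450 gene, at 0.25 (standard error 0.14), and it was highest in 4-HPAA replicate 4, at 4337 CPM, the library in which all Cyp2c members were lowest.

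Liver genes that depend on sex and growth hormone bear on the family too. The Y-linked genes Ddx3y, Eif2s3y, Kdm5d and Uty were present in every library, with a sum of 152 to 180 CPM. Of 10 growth hormone and sex-bias regulators, 4 were above 0 and 6 below. Cux2, a transcription factor gene high in female liver, was at 14.1, 2.05, 2.43 and 6.14 CPM in normal saline replicates 1 to 4 and at 3.03, 2.93, 2.69 and 2.04 CPM in 4-HPAA replicates 1 to 4. Its log2 fold change of -1.21 (standard error 0.54, edgeR unadjusted p = 0.0499, adjusted p = 1.00) came with 2 high libraries of normal saline. Cyp2a4, a P450 gene high in female liver, was at 28.3, 0.816, 0.544 and 275 CPM in normal saline replicates 1 to 4 and at 3.58, 0.790, 1.30 and 32.3 CPM in 4-HPAA replicates 1 to 4. The libraries high in Cyp2a4 were normal saline replicate 1 and both replicates 4, and in the latter Cyp2c37, Cyp2c50 and Cyp2c54 were low. Other sex-biased genes did not all follow this. Female-biased Cyp2b9 was at 3.61 CPM in normal saline replicate 4 but at 0.035 CPM, its lowest, in 4-HPAA replicate 4. The male-biased genes summed to 6273 CPM in the former and to 9358 CPM, their highest, in the latter, mostly Mup20 (7366 CPM). Male-biased Cyp2d9 was at 585 CPM in normal saline replicate 4 and at 700 CPM in normal saline replicate 1, against 1014 to 1286 CPM in the other 6. Elovl3 (17.8 CPM), Slco1a1 (308 CPM) and Hsd3b5 (51.0 CPM) were also at their lowest in normal saline replicate 4. The remaining male-biased genes, Mup20, Cyp4a12a, Cyp4a12b and Cyp7b1, were not. Of 8 male-biased genes tested 7 were above 0, and of 3 female-biased genes tested 0 were. Of 16 acute phase genes 1 was above 0 and 15 below, with a median of -0.09, and Apcs, the serum amyloid P gene, had the lowest p among them, at -0.44 (standard error 0.17, edgeR unadjusted p = 0.0239, adjusted p = 1.00).

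Within genes, the share held by the most abundant transcript could be followed in 3 members with more than 1 transcript of at least 10 counts everywhere. The coding transcript of Cyp2c29 (ENSMUST00000003137) held 99.2%, 99.4%, 99.4% and 99.3% of the gene's counts in normal saline replicates 1 to 4 and 99.6%, 99.6%, 99.5% and 99.5% in 4-HPAA replicates 1 to 4. The groups did not overlap (exact permutation test, two-sided, p = 0.0286, the smallest that 4 against 4 can give), and over the 3 genes the adjusted p was 0.0857. The rest was a transcript annotated for nonsense-mediated decay (ENSMUST00000177087), at 53.3 to 154 counts. Its log2 fold change was -0.58 (standard error 0.22, edgeR adjusted p = 1.00 over 25977 transcripts). For Cyp2c50 the shares were 69.6% ± 1.32 and 69.6% ± 1.40 (SD, n = 4 per group, exact permutation p = 1.00), with the remainder in a second coding transcript at 23.7% to 26.5% and one that retains an intron. For Cyp2c70 they were 91.2% ± 1.47 and 90.5% ± 2.59 (SD, n = 4 per group, exact permutation p = 0.629).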

How the data were processed

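Liver mRNA of 8 mice was sequenced after a directional TruSeq library preparation. The authors pseudo-aligned the reads with kallisto after FastQC 0.11.9 (per the labels, build GRCm38.p6) and deposited 1 estimated count per transcript and library, not normalized or pooled. The text of their methods names an NCBI annotation, while the identifiers in the table are from Ensembl. Their methods state standard parameters for kallisto.

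Counts were summed per gene by GENCODE M21 (116728 of 119414 transcripts matched, 2686 not matched, which held 0.703% to 1.06% of a library) and rounded. Library totals were 29559978 to 30673398. Testing was limited to genes that reached 10 counts in all 8 libraries, by edgeR 4.0.16 (TMM, quasi-likelihood, Benjamini-Hochberg, threshold 0.05, no covariate) in R 4.3.3. Standard errors are the log2 fold change over the square root of F. The p-values measure the spread between the samples. TPM used annotated transcript lengths, and r used log2 CPM with a prior count of 2. Transcript shares were compared by exact permutation tests. The pipeline was tested on simulated data. The fit was repeated with limma-voom (limma 3.58.1), DESeq2 1.42.0, other normalizations and filters, each library or doubtful pairs left out, a replicate block, single transcripts and summed paralogs. Python 3.11.15, pandas 2.3.3, SciPy 1.17.1 and matplotlib 3.10.9 were used.

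The members and gene lists were chosen with earlier results of these data known. Named genes are the members, listed genes with an unadjusted p under 0.05 plus up to 4 of the highest level per list, and the 3 genes most alike to each member among those of at least 1 CPM. Genes of a list named beyond this were chosen after their values were seen. Same-numbered libraries correlated at 0.0398 to 0.480 in their deviations from the group means. Coordinates count from 1.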

Additional observations from a re-analysis of the deposited data

Results flagged for a closer look

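Of 34 groups of 4 libraries examined for a single library far from the rest, 2 stood out, and chance gives about 1.7. Cyp2c29 was at 469 CPM in 4-HPAA replicate 4 against 771 to 818 CPM in the other 3, a gap of 0.866 of the whole range, above Dixon's critical value at 95%. The share of counts held by all 10 Cyp2c members was 0.130% in the same library against 0.239% to 0.252%, a gap of 0.89 of the range. Cyp2c29 is part of that share, so these are not independent.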

How the results depend on the processing

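No member was called under any of 17 alternative settings, in which the smallest adjusted p of a member was 0.999. Of 194 recomputed values of members, 185 kept their direction and side of the threshold and 9 turned direction. Without normal saline replicate 1 the log2 fold change was -0.042 for Cyp2c29 and -0.0062 for Cyp2c50. Without normal saline replicate 4 it was -0.055 for Cyp2c37, -0.076 for Cyp2c50 and -0.0037 for Cyp2c54, and without 4-HPAA replicate 1 it was -0.055 for Cyp2c37 and -0.046 for Cyp2c50. As single transcripts, ENSMUST00000177087 of Cyp2c29 stood at -0.58 and ENSMUST00000171604 of Cyp2c70 at 0.0064. The cause was not tested. Over all genes, DESeq2 called 2 and edgeR without 4-HPAA replicate 1 called 1, against 0, with 0 to 1 over the settings that leave out 1 library each. Unadjusted p under 0.05 was reached by 225 genes, by 415 with a minimum of 10 counts over all libraries and by 528 with no filter. Leaving out 1 library at a time, Cyp2c29 ranged from -0.042 to 0.25, Cyp2c37 from -0.055 to 0.43, Cyp2c50 from -0.076 to 0.30, Cyp2c54 from -0.0037 to 0.40, Cyp2c40 from -2.81 to -1.01, Cyp2c69 from -1.23 to -0.63 and Cyp2c39 from -0.87 to -0.55. With replicate number as a replicate block, 0 genes were called by edgeR and the smallest adjusted p was 0.118. An unadjusted p under 0.05 was reached by 336 of 12883 genes, among them 4 members (Cyp2c38, Cyp2c39, Cyp2c40 at -1.86 and Cyp2c69 at -1.07). Each of these members had an adjusted p of 1.00 by edgeR. They are not 4 separate observations, since Cyp2c40 and Cyp2c69 share 57.7% of the smaller set of words and Cyp2c38 and Cyp2c39 also share words. Cyp2c38, Cyp2c40 and Cyp2c69 were lower with 4-HPAA in 4 of 4 same-numbered pairs, but the share of all genes for which this holds was not computed. Whether the numbers pair the mice is not stated. Same-numbered libraries correlated at 0.239 on average and others at -0.0783, but replicates 1 at 0.0398, and 4 of 8 libraries were closest to their own number, so the block was kept as an alternative. Depth limits Cyp2c39, at 23.1 to 79.1 counts, and also Cyp2c40 and Cyp2c69, whose lowest libraries held 22.7 and 39.8 counts. Sequence likeness limits Cyp2c40, Cyp2c68 and Cyp2c69.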
